A study of Mus musculus with 6 samples.

Results

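The plate carried 4 genes that make or process fibrillar collagen: Col1a2 and Col3a1, which encode the alpha 2 chain of type I and the alpha 1 chain of type III collagen, Serpinh1, which encodes the collagen chaperone HSP47, and Lox, which encodes the cross-linking enzyme lysyl oxidase. They were chosen by name and are 4 of the 84 genes of interest on the plate. RNA came from pieces of back skin of 6 female Balb/c mice with chronic graft-versus-host disease (GVHD), 3 GVHD controls (numbered 1 to 3) and 3 CpG-proB recipients (numbered 4 to 6). All 6 mice were irradiated at an age of 10 weeks with 5.8 Gy and grafted with 5000000 marrow cells depleted of T and B cells and 1000000 splenocytes of C57BL/6 donors, and the recipients also received 750000 CpG-proBs, B-cell progenitors that had been activated with the TLR-9 agonist CpG. Skin was taken at day+70 after irradiation. Skin of mice without GVHD was not analysed here, so that levels can be set only against diseased skin.

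Fibrillar collagen gives the dermis its tensile strength, and its excess is a hallmark of sclerodermatous GVHD. Fibroblasts assemble type I collagen from alpha 1 and alpha 2 chains and type III collagen from a single kind of chain, and both collagens occur together in skin fibrils. HSP47 binds the newly made triple helix in the endoplasmic reticulum, and lysyl oxidase acts outside the cell, where it oxidises lysines of the assembled collagen so that cross-links can form. The plate held no alpha 1 chain of type I collagen.

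Signals are threshold cycles (Ct), which are lower where a well held more cDNA. If each cycle doubles the product, 1 Ct less means 2 times as much, but primer efficiencies were not analysed here. The 24 wells of the 4 genes had Ct values from 22.82 to 28.17, all under 28.21, the earliest of the negative-control wells. A gene is called late in an animal where its Ct was 28.21 or more. The highest belonged to Lox in control 2, whose own negative-control wells lay at 29.55 and 30.13. Levels are given as −ΔCt, the mean Ct of 6 house-keeping genes (Ppia, Tbp, B2m, Rplp0, Tfrc and Gusb) minus the Ct of the gene, a log2 scale on which higher means more RNA. That reference averaged 22.2 ± 0.801 cycles (SD, n = 3) for the controls, 22.5 ± 0.696 (SD, n = 3) for the recipients, and the groups overlapped. Its single genes did not move alike, the Ct difference of recipients minus controls being 1.18 for Ppia and −0.76 for B2m. In skin as a whole, fewer fibroblasts and less RNA per fibroblast cannot be told apart.

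Col3a1 fell in CpG-proB recipients with the 6 house-keeping genes as the reference, a call that was lost with all 8 of them (−1.16), with Actb alone (−0.12), with the 3 closest to their common mean (−0.93), and without control 1 or recipient 6. Serpinh1 and Lox had differences of opposite sign, both short of the threshold used in the study (the sign for Serpinh1 turned with Actb alone as the reference), and the sign for Col1a2 depended on the reference. With the 6 house-keeping genes the log2 fold changes of recipients over controls were −1.45 for Col3a1, −1.02 for Serpinh1, 0.16 for Col1a2 and 1.02 for Lox. That threshold asks for a 1.4-fold difference or more and an unadjusted p no higher than 0.05, here from limma. It was passed by 1 of the 4 genes and by 17.1% of the 82 genes tested, and lower levels in recipients past the threshold were found for 4.88%. This split of 10 genes higher and 4 lower turned with the reference, to 6 higher and 16 lower both with the 3 least variable house-keeping genes and with the median of all genes of interest, 3 and 3 without reference, and 12 higher and 0 lower with all 8 house-keeping genes. It also moved with single animals, to 6 higher and 6 lower without control 1, 12 and 1 without control 3, and 15 and 1 without recipient 4. With this reference none of the 4 reached an adjusted p of 0.05 (limma), as 2.44% of the genes did; unadjusted, 1 of the 4 did. Col3a1 reached it with the median of all genes of interest as the reference (adjusted p = 0.0167), with an intensity trend (0.0215) and among genes of lower mean Ct alone (0.0452), and Lox with Actb alone (0.0151). Over all alternatives the adjusted p of Col3a1 ran from 0.0167 to 0.875 and that of Lox from 0.0151 to 0.792. Ranked from the lowest log2 fold change to the highest, Col3a1 was at place 2, Serpinh1 at 6, Col1a2 at 44 and Lox at 71 of 82.

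The sequences directly upstream of the transcription start of Col1a2, Col3a1 and Serpinh1 are shown as background. Their relation to the levels and ratios was not tested. RefSeq windows of these 3 genes in GRCm38.p6 were used, and the 250 bases before the start are printed, 5′ to 3′ on the strand of the gene. No window of Lox is printed. Capitals mark matches to 5 short motifs that were searched on both strands, the CCAAT box (CCAAT), the TATA box (TATAAA), the GC box (GGGCGG), the CAGA box bound by SMAD proteins (CAGACA) and the core of the heat shock element (GAANNTTC).
Col1a2, chr6:4505368-4505617, plus strand: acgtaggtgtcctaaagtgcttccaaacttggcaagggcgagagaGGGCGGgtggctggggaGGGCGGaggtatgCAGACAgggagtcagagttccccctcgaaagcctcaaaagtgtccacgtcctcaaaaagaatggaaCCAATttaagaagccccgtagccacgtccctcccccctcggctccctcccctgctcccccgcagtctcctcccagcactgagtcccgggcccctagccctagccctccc
Col3a1, chr1:45311288-45311537, plus strand: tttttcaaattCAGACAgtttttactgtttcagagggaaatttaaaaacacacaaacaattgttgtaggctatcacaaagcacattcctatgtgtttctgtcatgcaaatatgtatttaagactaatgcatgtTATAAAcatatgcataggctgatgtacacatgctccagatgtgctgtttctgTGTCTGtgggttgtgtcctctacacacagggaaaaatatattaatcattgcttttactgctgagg
Serpinh1, chr7:99353240-99353489, minus strand: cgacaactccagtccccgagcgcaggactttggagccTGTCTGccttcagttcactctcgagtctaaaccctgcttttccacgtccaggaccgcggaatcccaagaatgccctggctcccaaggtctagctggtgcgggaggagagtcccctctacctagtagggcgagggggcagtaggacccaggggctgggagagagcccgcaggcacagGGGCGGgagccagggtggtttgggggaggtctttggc

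The Col3a1 window was poor in G and C (35.2%) and held no CpG, whereas those of Col1a2 (62%) and Serpinh1 (63.6%) were rich in both and held 11 CpG each. The median over the 32817 windows of the table was 52.4%. A CAGA box stood in all 3 windows, once in Col1a2 and Serpinh1 and 2 times in Col3a1, against 17.1% of all windows. The GC box occurred in Col1a2 (2 matches) and Serpinh1 (1 match) and in 32.7% of all windows, the CCAAT box in Col1a2 alone (33.8%), and the TATAAA letters in Col3a1 alone (12.4%). The core of the heat shock element was in none of the 3 and in 6.69% of all windows. These are matches of letters and not measured binding.

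Among the chains, Col1a2 was measured with primers in exons 46 and 47. Its −ΔCt was −1.87, −1.09 and −0.62 in GVHD controls 1, 2 and 3 and −1.85, −0.43 and −0.84 in CpG-proB recipients 4, 5 and 6. The lowest value of each group was nearly the same, and the groups overlapped, with recipient 5 above all controls and control 1 just below all recipients. The means were −1.20 ± 0.63 (SD, n = 3) and −1.04 ± 0.73 (SD, n = 3). The difference of 0.16 had a 95% interval from −1.002 to 1.31 (limma, adjusted p = 0.944), so that a 2-fold rise and a 2-fold fall both lie within it. Its sign turned with other references, to −0.31 with the 3 least variable house-keeping genes, −0.26 with the median of all genes of interest and −0.14 without reference, and also without control 1 (−0.18) or recipient 5 (−0.15).

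Col3a1, with primers in exons 2 and 3, had −ΔCt values of −1.58, −2.51 and −3.10 in controls 1, 2 and 3 and of −4.10, −3.33 and −4.12 in recipients 4, 5 and 6. Every recipient lay below every control, and control 1 stood highest. Groups did not overlap for 20.7% of the 82 genes, for 4.88% with recipients lower and for 15.9% with recipients higher. The log2 fold change of −1.45 (standard error 0.54, 95% interval −2.59 to −0.31) passed the threshold with an adjusted p of 0.18 from limma. It ranged over the references from −0.12 with Actb alone, an alternative chosen after seeing the data, to −1.91 with the 3 least variable house-keeping genes. It did not pass with Actb alone, with the 3 house-keeping genes closest to their common mean (−0.93, also chosen after seeing the data), with all 8 (−1.16), without control 1 (−1.04) or without recipient 6 (−1.32).

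**Figure D1:**
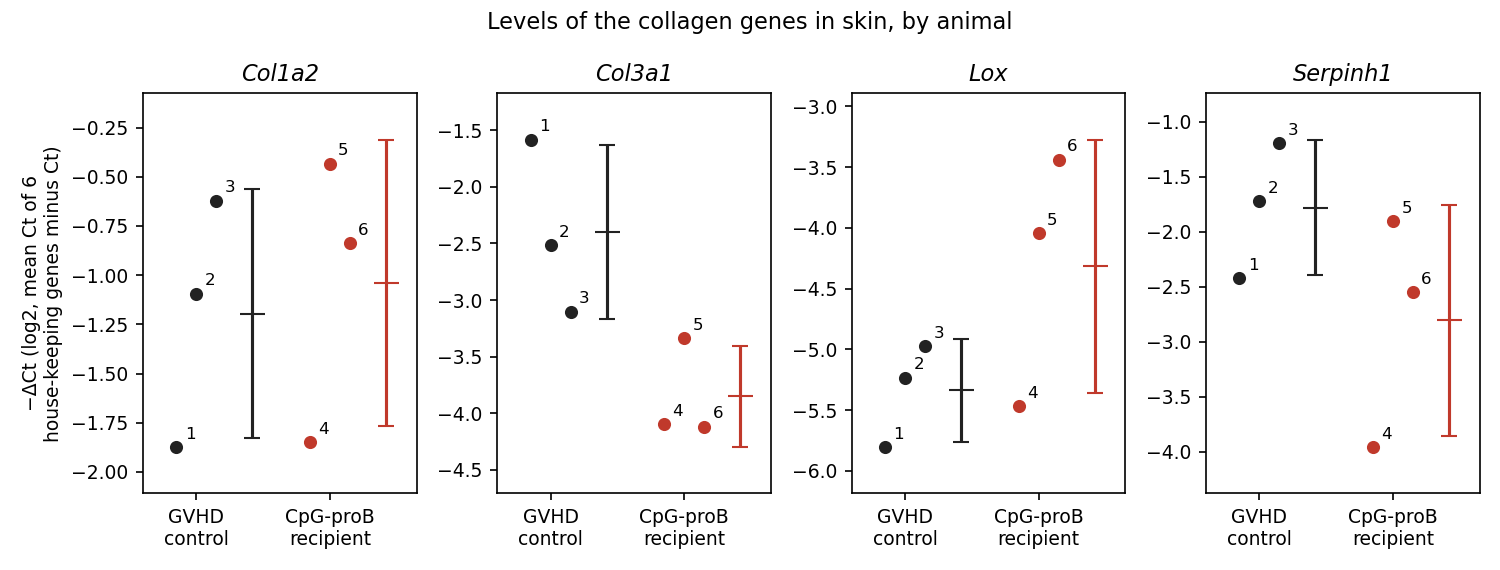
−ΔCt (log2 scale, y axis) of Col1a2, Col3a1, Lox and Serpinh1 in each GVHD control (black, animals 1 to 3) and CpG-proB recipient (red, animals 4 to 6), with the mean and SD of each group beside the points and a y axis of its own for each gene. The recipients lie below the controls for Col3a1 (−4.12 to −3.33 against −3.10 to −1.58), while the groups overlap for the other 3 genes.

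Serpinh1 was measured with primers in exons 4 and 5. Its −ΔCt was −2.42, −1.72 and −1.19 in controls 1, 2 and 3 and −3.96, −1.90 and −2.55 in recipients 4, 5 and 6. Recipients 4 and 6 lay below all controls and recipient 5 within their range. The difference of −1.02 (standard error 0.59, 95% interval −2.26 to 0.22, adjusted p = 0.404 from limma) did not pass the threshold, and with Actb alone as the reference its sign turned to 0.31. It passed with the 3 least variable house-keeping genes (−1.49), with the median of all genes of interest (−1.44), with an intensity trend, among genes of lower mean Ct alone, without control 1 (−1.35) and without recipient 5 (−1.47), and was −0.45 without recipient 4.

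Lox, the enzyme gene, had the highest mean Ct of the 4, 27.1, and primers in exons 4 and 5. In recipient 6, however, Col3a1 had the higher Ct, 27.1 against 26.42 for Lox. The values of Lox by animal follow. Its −ΔCt was −5.80, −5.23 and −4.97 in controls 1, 2 and 3 and −5.47, −4.04 and −3.44 in recipients 4, 5 and 6. Recipients 5 and 6 lay above all controls, and recipient 4 among them. The difference of 1.02 (standard error 0.57, 95% interval −0.19 to 2.23, adjusted p = 0.404 from limma) did not pass the threshold. It passed without recipient 4 (1.60), among genes of lower mean Ct alone and, of the references, with Actb alone and with the 3 house-keeping genes closest to their common mean (1.54). It was 0.58 without recipient 6. Its sign was positive under each of the references tried, from 0.56 with the 3 least variable house-keeping genes to 2.35 with Actb alone.

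A reference moves all genes by the same amount. The median log2 fold change of the 82 genes stood at 0.11 for the reference of 6, 0.41 for all 8, −0.35 for the 3 least variable, −0.30 for the median of all genes of interest and −0.18 without reference. Relative to that median, the values were −1.56 for Col3a1, −1.14 for Serpinh1, 0.04 for Col1a2 and 0.91 for Lox, whichever reference was taken.

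**Figure D2:**
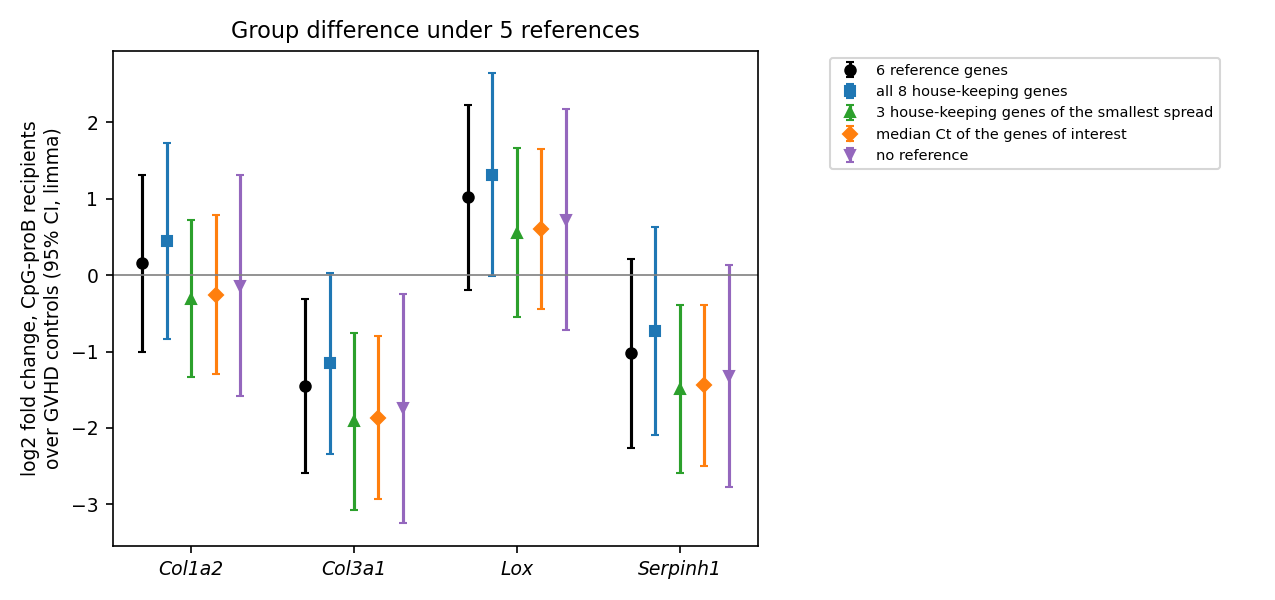
Log2 fold change of CpG-proB recipients over GVHD controls (y axis) for each gene under 5 references, with 95% intervals from limma (n = 3 animals per group). The 4 genes shift together from one reference to the next, so that Col1a2 lies on either side of 0 (0.45 to −0.31) while Col3a1 stays below 0 (−1.16 to −1.91), Lox above it (0.56 to 1.31) and Serpinh1 below it (−0.73 to −1.49; with Actb alone, not drawn, it was 0.31).

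The genes were next compared with each other within each animal. The difference in Ct of 2 genes of one animal is the log2 of their ratio and needs no house-keeping gene, so that the choice of reference does not move it. The 6 ratios among 4 genes share their genes and are not independent of each other. They were fitted with limma together with all 3321 pairs of the 82 genes, and adjusted p-values are over all of these pairs. Past the same threshold were 3 of the 6 ratios and 23.0% of all pairs. In 4 of the 6, and in 26.1% of all pairs, the groups did not overlap. No ratio of the 6 had an adjusted p of at most 0.05, which 6.59% of all pairs reached, and 3 of the 6 had an unadjusted p under that value. Under the alternatives, the adjusted p of Col3a1 to Lox from limma ran from 0.013 to 0.287, being under 0.05 among genes of lower mean Ct alone (0.013), with an intensity trend (0.0222), without recipient 4 (0.0325) and without control 3 (0.0439). That of Lox to Serpinh1 ran from 0.0272 to 0.185, under 0.05 with the same filter (0.0272) and trend (0.0381). With each pair keeping its own variance, Lox to Serpinh1 and Col1a2 to Serpinh1 were the 2 of the 6 that passed the threshold, beside 594 of all 3321 pairs.

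Between the chains, the log2 ratio of Col1a2 to Col3a1 was −0.29, 1.42 and 2.48 in controls 1, 2 and 3 and 2.25, 2.90 and 3.28 in recipients 4, 5 and 6. Control 3 lay within the range of the recipients and control 1 far below it. The ratio rose by 1.61 (standard error 0.74, 95% interval 0.07 to 3.14), or 3.05-fold, and passed the threshold with an adjusted p of 0.194 (exact permutation test, two-sided, p = 0.2). It fell short of the threshold without control 1 (0.86), control 2 (1.72), recipient 5 (1.56) or recipient 6 (1.37), when each pair kept its own variance, and with a Ct of 40 for missing wells.

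The ratio of Col1a2 to the chaperone gene was almost constant in controls. Its log2 value was 0.55, 0.63 and 0.57 in controls 1, 2 and 3 and 2.11, 1.47 and 1.71 in recipients 4, 5 and 6. All recipients lay above all controls by a gap larger than the range within either group. The SD in controls, 0.042, was undercut by 11 of the 3321 pairs and compares with a median of 0.786. In recipients the SD was 0.323, beside a median of 0.71. The difference of 1.18 (standard error 0.65, 95% interval −0.16 to 2.52) did not pass the threshold in the moderated fit, with an adjusted p of 0.285 from limma. It lay between 1.01 and 1.33 with each animal left out, and passed with its own variance and with an intensity trend. The exact permutation test gave p = 0.1, the smallest that 3 animals against 3 allow.

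The ratio of Lox to Serpinh1, of the enzyme to the chaperone, was −3.38, −3.51 and −3.78 in controls 1, 2 and 3 and −1.51, −2.14 and −0.89 in recipients 4, 5 and 6. The recipients lay above all controls, which again were close together, with an SD of 0.204. The log2 ratio rose by 2.04 (standard error 0.66, 95% interval 0.67 to 3.42), or 4.12-fold, past the threshold with an adjusted p of 0.0666 from limma. It passed under all 10 alternatives run for this ratio, with values from 1.73 to 2.36 when each animal was left out. Recipient 4 had the lowest −ΔCt of the 3 recipients for Lox, Serpinh1 and Col1a2, and its ratio of Lox to Serpinh1 lay between those of the other recipients.

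Lox set against the collagen chains gave a ratio of Col3a1 to Lox of 4.22, 2.72 and 1.87 in controls 1, 2 and 3 and of 1.37, 0.71 and −0.68 in recipients 4, 5 and 6. The controls spread over more than 2 cycles, and all of them were above the recipients. The log2 ratio fell by 2.47 (standard error 0.75, 95% interval −4.03 to −0.91), or 5.54-fold, the largest difference of the 6, with an adjusted p of 0.0502 from limma. Leaving out any one animal kept it past the threshold (−3.00 to −1.83), but letting each pair keep its own variance did not. The ratio of Col1a2 to Lox was 3.93, 4.14 and 4.35 in controls and 3.62, 3.61 and 2.60 in recipients. These groups did not overlap either, but the difference of −0.86 (standard error 0.66, 95% interval −2.23 to 0.51, adjusted p = 0.46) did not pass.

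The ratio of Col3a1 to Serpinh1, the pair with the lowest levels in recipients relative to controls, did not separate the groups. It was 0.84, −0.79 and −1.91 in controls 1, 2 and 3 and −0.14, −1.43 and −1.57 in recipients 4, 5 and 6. The difference of −0.43 (standard error 0.75, 95% interval −1.99 to 1.13, adjusted p = 0.783) turned to 0.30 without control 1. Although both genes were lower on average, the animals were not ordered alike, since control 1 had the highest Col3a1 and the lowest Serpinh1 of the controls.

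**Figure D3:**
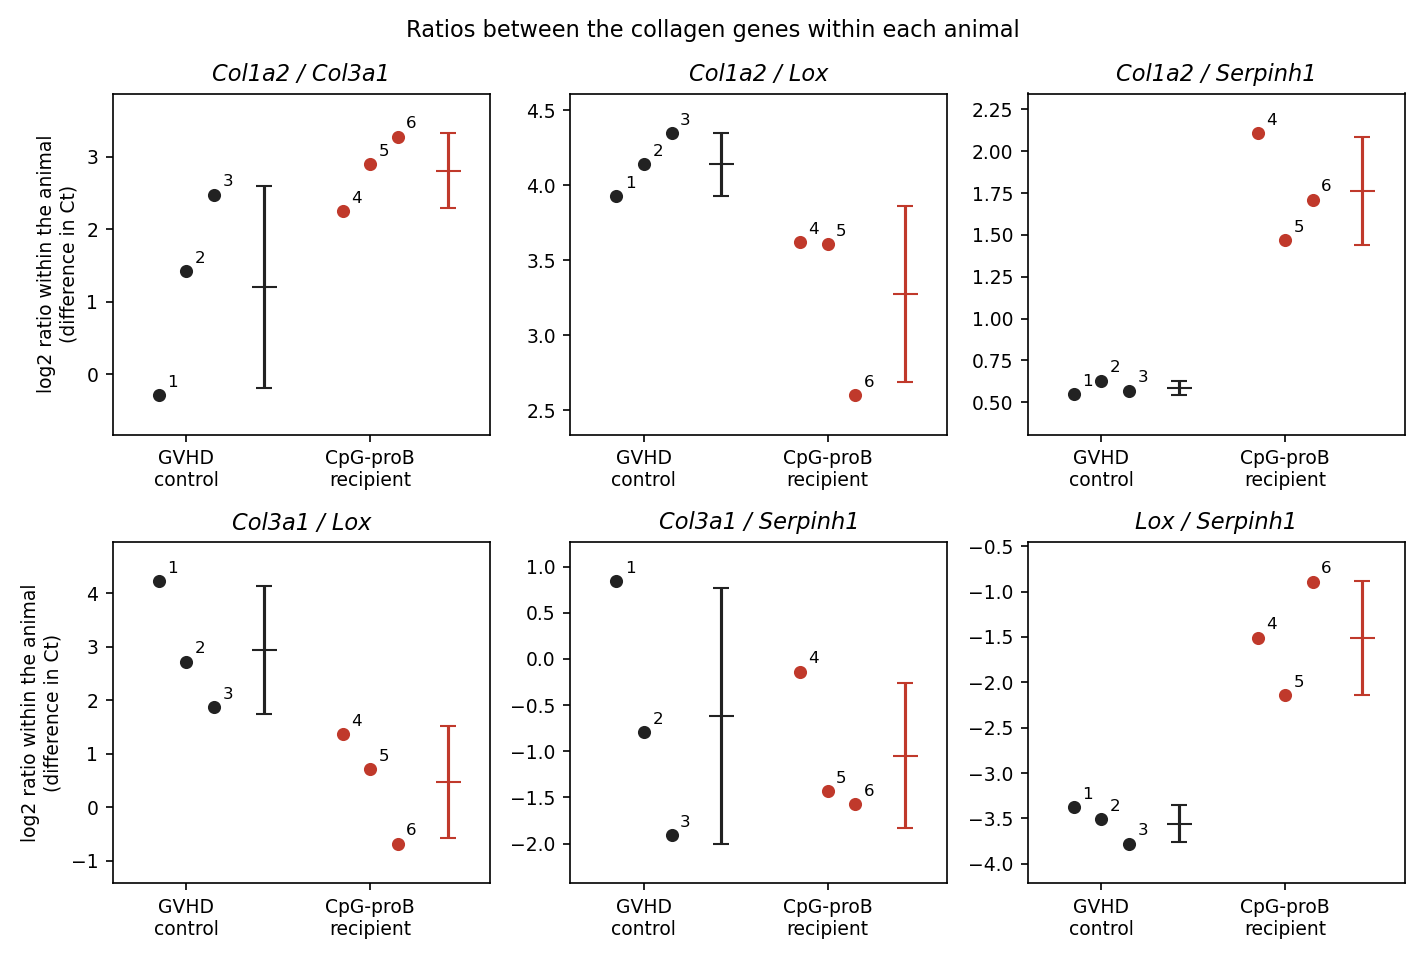
Log2 ratio of 2 genes within each animal (y axis, difference in Ct) for the 6 pairs, GVHD controls in black and CpG-proB recipients in red, with the mean and SD beside the points. The groups separate for Col1a2 / Serpinh1 (0.55 to 0.63 against 1.47 to 2.11), Lox / Serpinh1, Col3a1 / Lox and Col1a2 / Lox, and overlap for Col1a2 / Col3a1 and Col3a1 / Serpinh1.

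Levels of different genes are comparable only in part, as primers may differ in efficiency. After division by the length of the PCR product (142 bp for Col1a2, 80 for Col3a1, 131 for Lox and 147 for Serpinh1), Col1a2 had the highest level per length in 5 of 6 animals and Lox the lowest in 6 of 6. In control 1, Col3a1 was above Col1a2. In recipient 6, Lox was barely below Col3a1 (−10.47 against −10.44, log2 per length). On the log2 scale per length, Col1a2 exceeded Col3a1 by 0.38 ± 1.398 (SD, n = 3) in controls, within the spread, and by 1.98 ± 0.52 (SD, n = 3) in recipients, beyond it. For Col3a1 over Serpinh1 the controls gave 0.26 ± 1.38 (SD, n = 3) and the recipients −0.17 ± 0.79 (SD, n = 3), within the spread of both, each gene being higher in 3 animals. Serpinh1 exceeded Lox in every animal, by 3.39 ± 0.20 (SD, n = 3) for the controls and by 1.35 ± 0.63 (SD, n = 3) for the recipients.

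For each gene, the 3 genes of interest with the most similar pattern were found as those with the smallest SD over the 6 animals of the within-animal difference in Ct, among 81 genes without a missing well. Lox was closest to Timp2, which encodes an inhibitor of matrix metalloproteinases, with an SD of 0.199 where the median over the genes was 0.955. The log2 ratio of Lox to Timp2 lay between −4.46 and −3.95 in all animals, and Timp2 itself rose by 1.26 (standard error 0.55) past the threshold, with an adjusted p of 0.26 from limma. Next to Lox stood Cav1 (SD 0.372), which encodes the membrane protein caveolin 1, and Grem1 (SD 0.38), which encodes the BMP antagonist gremlin 1. Col1a2 was at place 13 and Col3a1 at place 80 of the 81.

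Serpinh1 was closest to Timp1 (SD 0.333, median over the genes 1.08), the gene of another metalloproteinase inhibitor. The log2 ratio of Serpinh1 to Timp1 ranged from 3.93 to 4.77. It was followed by Adgre1 (SD 0.411), which encodes the macrophage marker F4/80, and Mmp13 (SD 0.523), which encodes a collagenase. The log2 fold changes of the 3 were −0.99, −0.60 and −0.98, none past the threshold. Timp1 was late in 4 animals, Adgre1 in 3 and Mmp13 in 6, the last with a mean Ct of 31.2 where the negative-control wells reached 30.13.

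Col1a2 had its nearest patterns in Tbx21 (SD 0.285, median over the genes 0.794), the gene of the T-cell transcription factor T-bet, in Acta2 (SD 0.348), the gene of smooth muscle actin that marks myofibroblasts, and in Grem1 (SD 0.402). Tbx21 was late in all 6 animals, with a mean Ct of 30.8, and Acta2 and Grem1 in none. Col3a1 had no gene so close. Its nearest were Smad7 (SD 0.559, median over the genes 1.27), which encodes an inhibitor of TGF-beta signalling, Bmp7 (SD 0.683) and Il13ra2 (SD 0.746, late in 6 animals). Smad7 and Bmp7 had log2 fold changes of −0.47 and −0.62 that did not pass the threshold, and the log2 ratio of Col3a1 to Smad7 was 1.12 to 1.38 in controls and 0.04 to 0.44 in recipients, without overlap. The other chain, Col1a2, was at place 44 for Col3a1.

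**Figure D4:**
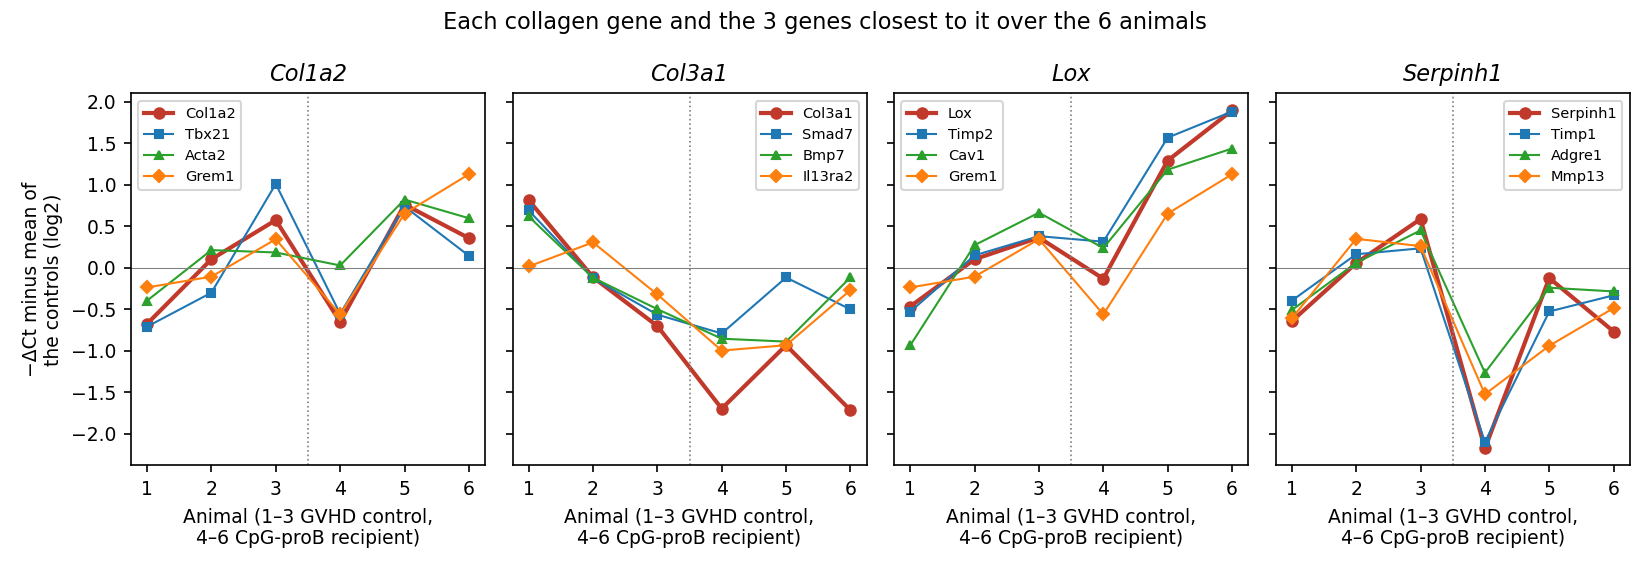
−ΔCt minus the mean of the controls (log2 scale, y axis) for each collagen gene (thick red line) and the 3 genes with the smallest SD of the within-animal difference to it, in animals 1 to 6. Lines join the values of one gene, and the order of the animals within a group has no meaning. Timp2 runs along with Lox (SD of the difference 0.199), while Col3a1 lies below its nearest genes in recipients 4 and 6 and level with Il13ra2 (−0.93) in recipient 5.

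Other genes of the collagen pathway on the plate were described in 3 lists. Of 8 genes that induce collagen synthesis, 2 passed the threshold, both higher in recipients, against 12.2% of all genes. They were Tgfbr2, the type II receptor of TGF-beta (log2 fold change 1.45, standard error 0.56, adjusted p = 0.183 from limma), and Pdgfb (1.70, standard error 0.51, adjusted p = 0.061). The other 6 had log2 fold changes of −0.73 (Tgfb1), −0.70 (Pdgfa), 0.57 (Smad3), 0.62 (Tgfbr1), 0.77 (Ctgf) and 0.90 (Tgfb2). The groups did not overlap for 4 of the 8 with recipients higher (Tgfbr2, Pdgfb, Ctgf and Tgfb2), beside 15.9% of all genes. With recipients lower this held for 1 (Pdgfa), beside 4.88% of all genes. The median of the list was 0.69, beside 0.11 over all 82 genes.

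Of 8 genes for the breakdown of collagen and its inhibitors, 7 could be tested, since Mmp1a had no Ct in recipients 5 and 6. Mmp9 (2.07, standard error 0.60, adjusted p = 0.061 from limma) and Timp2 passed the threshold, both higher in recipients, beside 12.2% of all genes. Mmp9 was late in 4 animals, Timp1 in 4, and Mmp3 and Mmp13 in 6. Groups did not overlap for 1 of the 7, Mmp9, with recipients higher, beside 15.9% of all genes. The others were at −0.99 (Timp1), −0.98 (Mmp13), −0.38 (Mmp3), 0.34 (Mmp14) and 0.93 (Mmp2), and the median was 0.34.

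Of the 3 subunits of collagen-binding integrins, Itga1 passed the threshold (1.27, standard error 0.60, adjusted p = 0.284 from limma), beside 12.2% of all genes with higher levels in recipients, and Itga2 (0.24) and Itgb1 (0.64) did not. Groups did not overlap for 1 of the 3, Itgb1, with recipients higher, beside 15.9% of all genes. With the reference of 6 house-keeping genes, no gene of the 3 lists fell past the threshold in limma, beside 4.88% of all genes. Pdgfa was lower in every recipient than in every control without passing the threshold. Nothing is read from the count of genes that fell, since the genes lower past the threshold on the whole plate went from 4 to 16 with the 3 least variable house-keeping genes or the median.

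**Figure D5:**
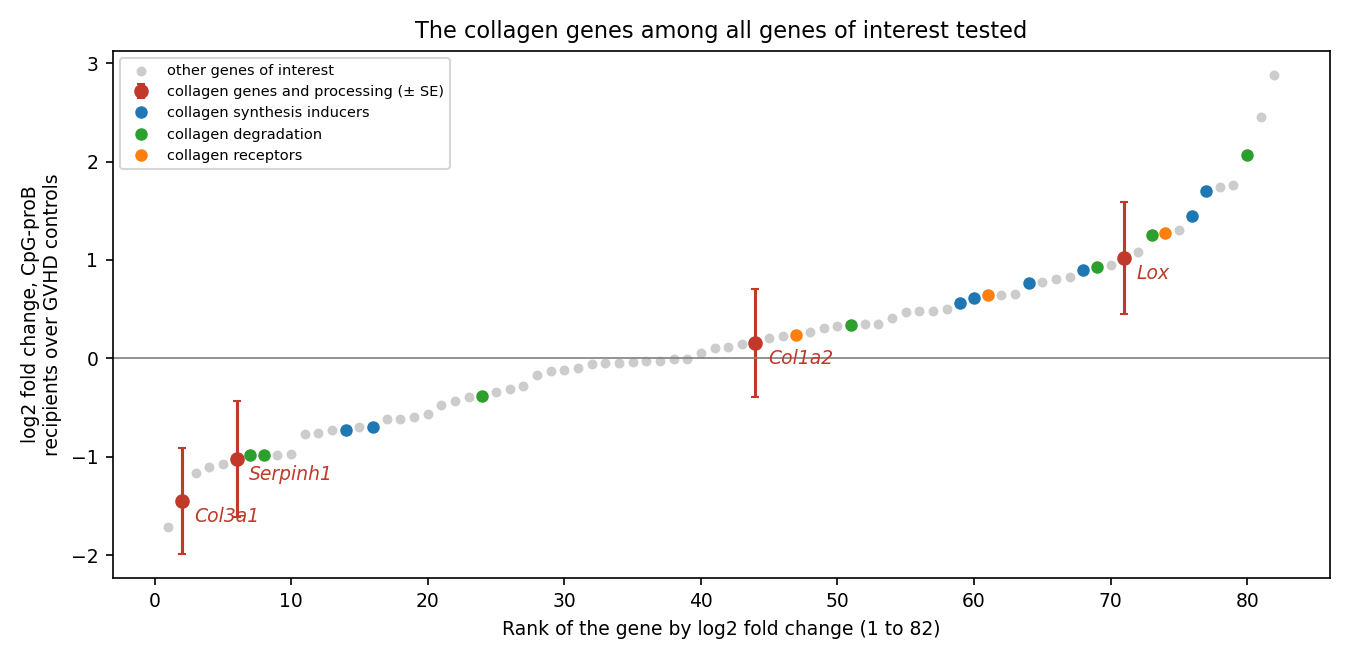
Log2 fold change of CpG-proB recipients over GVHD controls (y axis, 6 house-keeping genes as the reference) for the 82 genes tested, ranked from lowest to highest (x axis), with the collagen genes in red (± standard error) and the 3 pathway lists in colour. Col3a1 and Serpinh1 lie at the lower end (places 2 and 6), Col1a2 in the middle (44) and Lox in the upper part (71).

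Of the 6 cell-type markers, 1 passed the threshold, beside 17.1% of all genes. Acta2 differed by 0.48 (standard error 0.50), its level being −0.69 to −0.083 in controls against −0.27 to 0.53 in recipients. The summed level of the 3 macrophage markers (Csf1r, Adgre1 and Cd68) was −3.28 to −2.15 in controls against −2.91 to −2.42 in recipients on the log2 scale, and Csf1r rose past the threshold (1.30) while Adgre1 (−0.60) and Cd68 (−0.56) did not pass it. The 2 genes of cytotoxic lymphocytes (Gzmb and Ifng) summed to −5.32 to −2.84 in controls and −4.18 to −3.56 in recipients. The groups overlapped for Acta2 and for the 2 sums. For Csf1r alone of the 3 macrophage markers every recipient lay above every control, as for 15.9% of all genes. The part of cell composition in the differences of the collagen genes was not tested, and the plate held no keratin gene by which the labelled tissue could be checked.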

How the data were processed

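RNA from the back skin of 6 mice was measured on a custom SYBR Green qRT-PCR plate. Per the labels, cDNA was made from 1 ng of total RNA with random primers. The Ct values used here were deposited by the authors without normalization. A second table holds their own group comparison as ΔΔCt and fold change, and was not used. How a Ct was called and whether wells were repeated is not given in the sources used here. Wells were named through the plate map of the paper. Samples were grouped by their titles, and each was taken as 1 mouse, since the paper gives 3 animals per group. The p-values measure the spread between these samples.

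The methods name a geometric mean of 6 house-keeping genes without listing them. Ppia, Tbp, B2m, Rplp0, Tfrc and Gusb were used, a set known from earlier work on these data, and Actb and Hprt, whose Ct differed most between the groups (1.62 and 1.32 cycles), were left out. The 6 kept were not alike either. Their Ct differences, recipients minus controls, were 1.18 (Ppia), 0.93 (Tfrc), 0.33 (Tbp), 0.16 (Rplp0), −0.08 (Gusb) and −0.76 (B2m) cycles. Averaging Ct corresponds to the geometric mean of expression. Missing wells stayed missing, and genes with at least 2 Ct per group were tested (82 of 84). Groups were compared with limma 3.58.1 in R 4.3.3 (two-sided, Benjamini-Hochberg adjustment), genes on −ΔCt and all 3321 gene pairs on the difference in Ct, with 12.7 and 18.1 prior degrees of freedom. The steps were tested on simulated data. Exact permutation tests over 3 against 3 animals cannot go below p = 0.1. The genes named are the 4 collagen genes, the 3 pathway lists, the cell-type markers and the 3 genes most like each collagen gene. The members, lists and tests were chosen with earlier results of these data known. Alternatives changed the reference, the mean, the variance model, the filter, missing wells (Ct of 40) and the animals. Figures were drawn with matplotlib 3.10.9.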

Additional observations from a re-analysis of the deposited data

How the results depend on the processing

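No paired analysis was possible because the animals are numbered from 1 to 6 and the groups share no number. Across the 17 alternatives run for each gene, 12 left the direction and the side of the threshold of Col3a1 as they were, 13 those of Lox, 10 those of Serpinh1 and 12 those of Col1a2. Col3a1 no longer passed with all 8 house-keeping genes (−1.16), with the 3 closest to the mean of the 8 (Tbp, Tfrc and Ppia, −0.93) or with Actb alone (−0.12), the last 2 chosen after seeing the data. With these 2 references Lox passed (1.54 and 2.35), and Serpinh1 turned to 0.31 with Actb alone. With the 3 least variable house-keeping genes (Gusb, B2m and Tbp), the median of all genes of interest and no reference, Col1a2 turned to −0.31, −0.26 and −0.14. Serpinh1 passed with the first 2 of these (−1.49 and −1.44) and, at −1.02 as before, with an intensity trend. With genes of a mean Ct under the lowest negative control alone, Lox (1.02) and Serpinh1 (−1.02) both passed. The number of genes past the threshold, 14, became 22 with the 3 least variable, 22 with the median, 6 without reference and 38 with Actb alone, and its split of 10 higher and 4 lower became 6 and 16 with the first 2, 3 and 3 without reference, 12 and 0 with all 8, 21 and 0 with the 3 closest to the mean, and 38 and 0 with Actb alone. With each animal left out, the log2 fold changes ranged from −0.18 to 0.56 for Col1a2 (negative without control 1, −0.18, and recipient 5, −0.15), −1.80 to −1.04 for Col3a1, 0.58 to 1.60 for Lox and −1.47 to −0.45 for Serpinh1. The counts ranged from 11 to 16 genes (6 higher and 6 lower without control 1, 12 and 1 without control 3, 15 and 1 without recipient 4) and from 567 to 754 pairs, against 764.

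For the ratios, 10 alternatives were run. When each pair kept its own variance, Col1a2 to Col3a1 (1.61) and Col3a1 to Lox (−2.47) no longer passed and Col1a2 to Serpinh1 (1.18) did, as it did with an intensity trend (1.18). Col1a2 to Col3a1 also did not pass with a Ct of 40 for missing wells (1.61). With each animal left out the ranges were 0.86 to 2.25 for Col1a2 to Col3a1, −1.04 to −0.53 for Col1a2 to Lox, 1.01 to 1.33 for Col1a2 to Serpinh1, −3.00 to −1.83 for Col3a1 to Lox, −1.07 to 0.30 for Col3a1 to Serpinh1 (0.30 without control 1) and 1.73 to 2.36 for Lox to Serpinh1. The cause of these changes was not tested. Without correction for product length, Col1a2 was highest and Lox lowest in 4 animals, against 5. With 3 animals per group, the 95% intervals of the 4 genes reached more than 1 cycle to either side of the estimate.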
